A study of Mus musculus with 4 samples.

Results

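YTHDC1 is a reader of N6-methyladenosine (m6A), a modified adenosine in RNA, and the peaks of its immunoprecipitate are described here over all genes. All 9963 deposited YTHDC1 peaks were taken, of 19866 peaks deposited for 3 readers, and each was placed by its summit, the base of highest read pileup. Summits were given to genes and regions with the GENCODE M21 annotation of the mouse build GRCm38, exon before intron and protein-coding genes first. The other lists, used only to show where YTHDC1 differed, held 7069 peaks for IGF2BP2 and 2834 for YTHDF2.

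The series mapped RNA bound by m6A readers in mouse leukaemia, a setting taken from its title. The YTHDC1, IGF2BP2 and YTHDF2 immunoprecipitates and the input were 1 library each, all from lin- c-Kit+ bone marrow cells that the labels call LIC. The cells of all 4 libraries were grown in IMDM with 10% fetal bovine serum and mouse IL3, IL6 and SCF, and carried no other treatment or allele named in the labels. They were crosslinked with UV light of 254 nm at 120 mJ per cm2 in 3 exposures and sonicated, and strand-specific libraries made with 20 PCR cycles were size-selected for 250 to 450 bp. Kit, whose product defines the sorted fraction, had 1 YTHDC1 summit, in an intron and with a pileup of 4. A peak list shows enrichment and not expression, so it cannot check the identity of the cells. Since each reader had 1 library, no difference between lists has a replicate check and none was tested. Intervals are exact binomial 95% intervals and cover counting error only. Input reads were not analysed here. The labels do not name the track behind the deposited folds, and the depth of the libraries is unknown.

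YTHDC1 is the nuclear member of the YTH family. As background, it is known to bind m6A on pre-mRNA and on nuclear noncoding RNA, to act in splice site choice, polyadenylation and mRNA export together with SR proteins and cleavage factors, and to act with Xist RNA and with RNA made from retroelements on chromatin. In acute myeloid leukaemia it is known from other work as a gene the cells depend on. IGF2BP2 and YTHDF2 are mainly cytoplasmic readers, known for stabilising mRNA and for promoting its decay.

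Most of the strongest coding summits of YTHDC1 lay on stretches of codons for glutamate and aspartate. How far such stretches set the base composition described further on was not tested, and the sequences are shown as examples. They reach 50 bases to each side of the summit in 5 of the 6 genes whose strongest peak lay in coding sequence (CDS) among the 12 protein-coding genes with the highest pileup. All are read 5' to 3' on the coding strand of the GENCODE M21 transcript in GRCm38. Capitals mark in-frame codons for the acidic amino acids.
Cenpb, chr2:131178508-131178608, minus strand: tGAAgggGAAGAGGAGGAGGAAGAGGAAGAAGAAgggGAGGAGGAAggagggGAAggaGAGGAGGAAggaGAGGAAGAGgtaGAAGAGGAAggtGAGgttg
Ccdc9, chr7:16275963-16276063, minus strand: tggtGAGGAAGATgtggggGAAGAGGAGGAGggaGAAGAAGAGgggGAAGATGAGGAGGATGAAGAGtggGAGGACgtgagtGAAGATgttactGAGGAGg
Ythdc1, chr5:86817090-86817190, plus strand: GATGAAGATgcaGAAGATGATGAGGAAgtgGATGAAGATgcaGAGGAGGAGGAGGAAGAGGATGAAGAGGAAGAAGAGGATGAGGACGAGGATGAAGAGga
Gm10800, chr2:98667088-98667188, minus strand: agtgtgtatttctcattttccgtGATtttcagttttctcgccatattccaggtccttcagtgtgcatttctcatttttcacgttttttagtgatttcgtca
Hnrnpu, chr1:178337163-178337263, minus strand: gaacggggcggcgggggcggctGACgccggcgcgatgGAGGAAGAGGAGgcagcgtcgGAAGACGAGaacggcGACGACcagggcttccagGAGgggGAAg
The summit in Ythdc1 itself, the gene of the precipitated reader, had 30 acidic codons of 33. Cenpb, which encodes a centromere protein, had 24, and the coiled-coil gene Ccdc9 had 23. Hnrnpu, which encodes a nuclear RNA-binding scaffold protein, had 12. The predicted gene Gm10800 had 1 such codon and 30.7% purines, so its sequence was of another kind, and its fold of 4.63 was the lowest of the 5. Its peak was 709 bp wide, and repeats at this site were not checked.

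The noncoding RNAs Malat1 and Neat1 are shown next because they, with Lncppara, held the most YTHDC1 summits of all genes outside the protein-coding class. Malat1 RNA sits in nuclear speckles, and Neat1 RNA is the scaffold of paraspeckles. The 3 strongest summits of each are given on the transcript strand, again with 50 bases to each side and with the m6A core motif GGAC in capitals.
Malat1 (pileup 170), chr19:5801113-5801213, minus strand: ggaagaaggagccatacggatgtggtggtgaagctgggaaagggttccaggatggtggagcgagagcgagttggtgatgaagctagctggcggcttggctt
Malat1 (pileup 87), chr19:5799736-5799836, minus strand: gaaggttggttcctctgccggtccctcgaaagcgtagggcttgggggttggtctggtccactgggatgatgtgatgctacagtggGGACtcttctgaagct
Malat1 (pileup 70), chr19:5801838-5801938, minus strand: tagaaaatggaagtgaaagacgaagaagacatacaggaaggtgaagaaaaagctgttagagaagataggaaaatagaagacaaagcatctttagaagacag
Neat1 (pileup 46), chr19:5844527-5844627, minus strand: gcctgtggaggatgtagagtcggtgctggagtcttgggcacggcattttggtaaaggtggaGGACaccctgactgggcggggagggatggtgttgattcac
Neat1 (pileup 40), chr19:5843617-5843717, minus strand: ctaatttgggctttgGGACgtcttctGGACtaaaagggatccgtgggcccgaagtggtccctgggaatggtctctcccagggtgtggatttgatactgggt
Neat1 (pileup 32), chr19:5843038-5843138, minus strand: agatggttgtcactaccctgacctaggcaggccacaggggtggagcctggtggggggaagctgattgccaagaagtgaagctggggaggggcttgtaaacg
Malat1 (chromosome 19, 5795690 to 5802672, minus strand) had 7 summits. From its 5' end their pileups were 9, 70, 170, 7, 87, 10 and 21 reads, and the strongest peak had a fold of 15.5. Neat1 (chromosome 19, 5824708 to 5845478, minus strand) had 10 summits, with pileups of 12, 11, 46, 40, 18, 32, 10, 8, 4 and 3 from the 5' end. Of these, 7 lay in the first 18.7% of Neat1 and the other 3 between 61.1% and 71.5% of its length. GGAC was in 1 of 7 Malat1 windows and in 3 of 10 Neat1 windows. In tiles of the same size laid end to end along the same RNAs, it was in 20.3% of 69 tiles of Malat1 and 30.7% of 205 tiles of Neat1.

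Most YTHDC1 peaks were shallow. The pileup was 2 to 200 reads with a median of 6. The fold, the authors' ratio of pileup to background, was 2.03 to 111 with a median of 6.01. The highest pileup was 199 for IGF2BP2 and 200 for YTHDF2. Whether the deposited lists have an upper limit of pileup was not tested. In 2333 peaks (23.4%) the pileup was 3 or less, while 357 peaks had 50 or more and 82 had 100 or more. The 996 peaks with the highest pileup, 10% of the list, held 43.5% of the pileup summed over all summits. The weakest peak of the list, in Cct7, had a −log10 q of 2.02, and peaks under the authors' threshold were not used here.

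Introns held more YTHDC1 summits than any other region. There were 3742 in introns (37.6%, interval 36.6 to 38.5), 2557 in CDS (25.7%), 1011 in 3' UTRs (10.1%), 754 in 5' UTRs (7.57%), 584 in other exons (5.86%) and 1315 between genes (13.2%). The intronic share was 37.6% for YTHDC1, 25.4% for IGF2BP2 and 21.4% for YTHDF2. The CDS share was 25.7% for YTHDC1, 45.6% for IGF2BP2 and 47.0% for YTHDF2. For 5' UTRs it was 7.57% for YTHDC1, 2.98% for IGF2BP2 and 4.34% for YTHDF2. YTHDC1 thus had the highest share of introns and of 5' UTRs and the lowest share of CDS of the 3 lists. The median pileup at YTHDC1 summits was 9 reads (interval 9 to 10) in 5' UTRs, 7 in CDS, 6 in introns and 3' UTRs and 5 between genes.

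The 5' UTR share moved with pileup. It was 3.73% of peaks with 2 to 3 reads, 5.45% at 4 to 6, 9.63% at 7 to 12, 11.8% at 13 to 24 and 14.4% at 25 to 49, then 7.0% at 50 or more. The intronic share was 40.3% at 2 to 3 reads and 32.8% at 50 or more, so introns kept the first place in every class. Of the 357 deepest peaks, 117 were intronic and 108 lay in CDS.

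Of 22028 protein-coding genes, 4136 had a YTHDC1 summit (18.8%). An exonic summit was found in 2823 of them (12.8% of all) and an intronic one in 2170 (9.85% of all). The summits lay only in exons in 1966 genes, only in introns in 1313 and in both in 857. These classes differed in gene length, with medians of 20.3 kb, 72.7 kb and 45.6 kb, against 17.3 kb over all protein-coding genes. With all protein-coding genes put in 5 classes of equal size from short to long, the share with an exonic summit was 6.47%, 9.85%, 14.8%, 16.5% and 16.5%. The share with an intronic summit was 0.931%, 3.11%, 7.63%, 12.3% and 25.3%. Gene length and transcript level were not matched in any count of genes given here.

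Multiple summits were common. At least 3 were found in 885 genes, at least 5 in 267 (1.21% of protein-coding genes) and at least 10 in 44, and those 44 held 7.24% of the summits in protein-coding genes. Of the 15 genes with the most, 7 had nearly all summits in introns and 5 had most in CDS. The other 3, Baz2b, Jmjd1c and Baz1a, belonged to neither group.

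**Figure D1:**
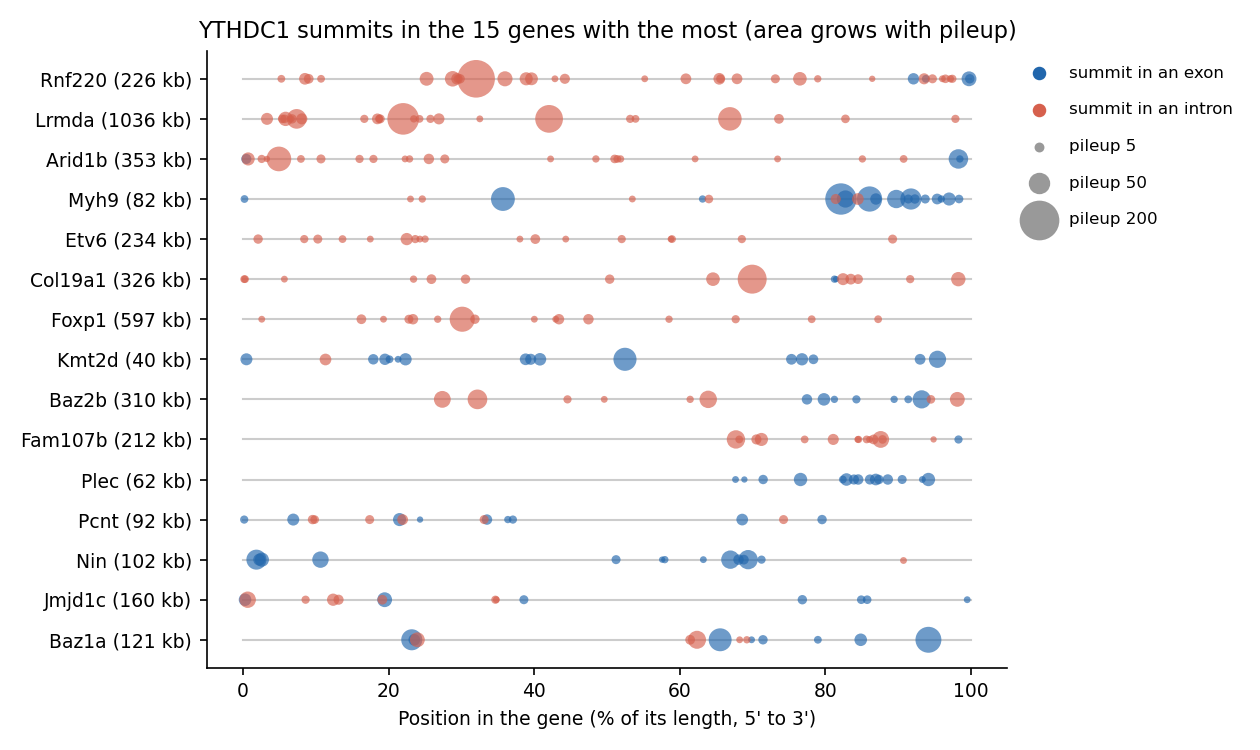
Each row is one of the 15 protein-coding genes with the most YTHDC1 summits, each point a summit, placed by its position in percent of gene length from the 5' end and with its area growing with pileup in reads. Rnf220, Lrmda, Etv6 and Foxp1 carried red intronic summits along most of their length, while the 15 summits of Plec were all in exons and lay past 67.6% of the gene.

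Rnf220, which encodes an E3 ubiquitin ligase, had the most YTHDC1 summits of all genes. It had 34 (chromosome 4, 117271463 to 117497052, minus strand), 30 of them intronic and 23 of those in intron 2, which is 182 kb long. Pileups in Rnf220 were 2 to 200 with a median of 9.5, and the strongest peak, at 117424701 to 117425100 in intron 2, had a fold of 52.9. In the same gene YTHDC1 had 34 peaks, IGF2BP2 7 and YTHDF2 1. Lrmda, known for a role in melanocyte differentiation, had 25 summits, all intronic, over 1036374 bp, and 20 of them lay in intron 2. Its 3 deepest had pileups of 140, 107 and 76.

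Etv6, an ETS family repressor gene that is often rearranged in leukaemia, had 17 summits, all of them in introns (chromosome 6, 134035700 to 134270158, plus strand). From the 5' end, the pileups in Etv6 were 9, 6, 8, 5, 3, 18, 6, 3, 4, 3, 10, 3, 6, 3, 5, 6 and 8 reads. The first 3 lay in intron 1, the next 8 in intron 2, 5 in intron 3 and 1 in intron 5 of 8. No single deep site stood out in Etv6, and its fold did not pass 10.8. Foxp1, a forkhead repressor gene, had 16 intronic summits, 7 of them in intron 1, with 1 deep site of 87 reads and the others at 3 to 12. Fam107b had 14 of its 15 summits in its intron 2. Arid1b, a subunit gene of the BAF chromatin remodelling complex, had 21 intronic and 3 CDS summits.

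Myh9, Plec, Kmt2d, Pcnt and Nin were the 5 with most summits in CDS. Myh9, the nonmuscle myosin heavy chain gene, had 22 summits with 14 in CDS, and its deepest had 138 reads. Plec, which encodes the cytoskeletal linker plectin, had 15 summits, all in CDS, with pileups of 2 to 22. Of these, 11 lay within 10 kb. Kmt2d, a histone H3 lysine methyltransferase gene, had 16 with 12 in CDS and a deepest of 73 reads. Pcnt and Nin, genes of centrosomal proteins, had 15 and 14 summits with 8 and 9 in CDS, and Nin had the most 5' UTR summits of all genes, 4. Baz2b, a gene of a chromatin protein, had 6 of its 15 summits in CDS and 8 in introns. Jmjd1c and Baz1a, also genes of chromatin proteins, had 5 of 14 and 6 of 13 in CDS, with 7 and 5 in introns. Outside the 15, Eif3a, a subunit gene of the translation initiation factor eIF3, had 9, all in CDS, with pileups of 29, 12, 51, 56, 60, 72, 8, 44 and 17 from the 5' end. Each of the 9 Eif3a peaks overlapped a peak of both other readers.

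Cul1, Nrros and Erg had 1 deep site each and at most 1 other, shallow summit. Cul1, the cullin scaffold gene of SCF ubiquitin ligases, had 1 summit, with 183 reads and a fold of 50.7 in intron 2. Nrros, which encodes a regulator of reactive oxygen species in myeloid cells, had an intronic summit with 149 reads and a fold of 64.8 beside one of 9 reads. Erg, an ETS factor gene of stem cells, had 185 reads in its 3' UTR with a fold of 9.42, and 5 reads in intron 3. Celf2, Arhgap15 and Dock10 had more than 1 deep site. Celf2, a splicing regulator gene of 969870 bp, had pileups of 175, 5, 4, 10, 3, 65 and 3 reads within 9.49% of its length. Arhgap15, a GTPase-activating protein gene, had 6 intronic summits with pileups of 3, 4, 158, 19, 52 and 28. The highest fold of the list, 111, was in Dock10, a guanine nucleotide exchange factor gene, at a summit with 147 reads in intron 1. Its 10 summits had pileups of 26, 147, 53, 7, 20, 3, 39, 8, 9 and 22 from the 5' end, the first 4 of them in intron 1.

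Untranslated regions held several summits in a few genes. A UTR of any transcript was taken before CDS, so some of these sites may be coding in other transcripts. With CDS taken first, 6.89% of all YTHDC1 summits were in 3' UTRs, against 10.1% as counted here. The counts per gene were not repeated in that way. The most 3' UTR summits were in Ankrd11, a chromatin regulator gene, with 6 of its 12 summits there, and in Safb2, a nuclear scaffold attachment factor gene, with 5 of 9. Rbm25, a splicing factor gene, and Hk3, a hexokinase gene, had 4 each, with deepest peaks of 86 and 39 reads. In Safb2 and Rbm25 these sites were not at the end of the gene. No Safb2 summit lay past 76.6% of gene length. The deepest Rbm25 summit was at 83668169, in a plus-strand gene that ends at 83683123. In 5' UTRs, Nin was followed by Ubtf, a gene of RNA polymerase I transcription, by Lrrc8d, an anion channel subunit gene, and by the scaffold gene Homer1, with 3 each.

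YTHDC1 summits spanned a larger part of their genes than summits of the other readers. In the 885 genes with 3 or more, the distance from the first to the last summit had a median of 62.3% of gene length (interval 59.1 to 65.5). The median was 44.4% in 696 such genes for IGF2BP2 and 43.1% in 204 for YTHDF2. A spread of 80% or more was seen in 31.4% of these genes for YTHDC1, 13.9% for IGF2BP2 and 11.8% for YTHDF2. The spread of evenly placed summits, which grows with their number in a gene, was not computed. The lists also differed in their intronic share. Among genes with at least 5 YTHDC1 summits, Ano6, Arrb1, Dync1h1, Jmjd1c, Gfod1 and Chd7 had the widest spread, and Snd1, Celf2, Msn, Kif21b, Cracr2a and Gse1 the narrowest. Dync1h1, the dynein heavy chain gene, had 10 summits from 0.450% to 99.8% of its length. Snd1, which encodes a nuclease-domain protein, had its 5 within 6.04% of its length, with pileups of 5, 4, 6, 4 and 6.

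YTHDC1 summits were most frequent at the 5' end of genes. The first 10% of the gene body held 21.9% of summits in protein-coding genes, and the first 1 kb held 1460 of 8103 (18.0%, interval 17.2 to 18.9). Evenly placed along the same exons and introns, 5.17% would lie in the first 1 kb. For IGF2BP2 the first 1 kb held 7.09% (even placement 4.51%) and for YTHDF2 9.26% (6.20%). Exonic and intronic summits both took part. Within 1 kb of the start lay 24.6% of exonic YTHDC1 summits (even placement 7.17%), against 8.98% for IGF2BP2 and 11.1% for YTHDF2. Of intronic summits 9.53% lay there for YTHDC1 (even placement 2.59%), against 2.34% for IGF2BP2 and 3.12% for YTHDF2.

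**Figure D2:**
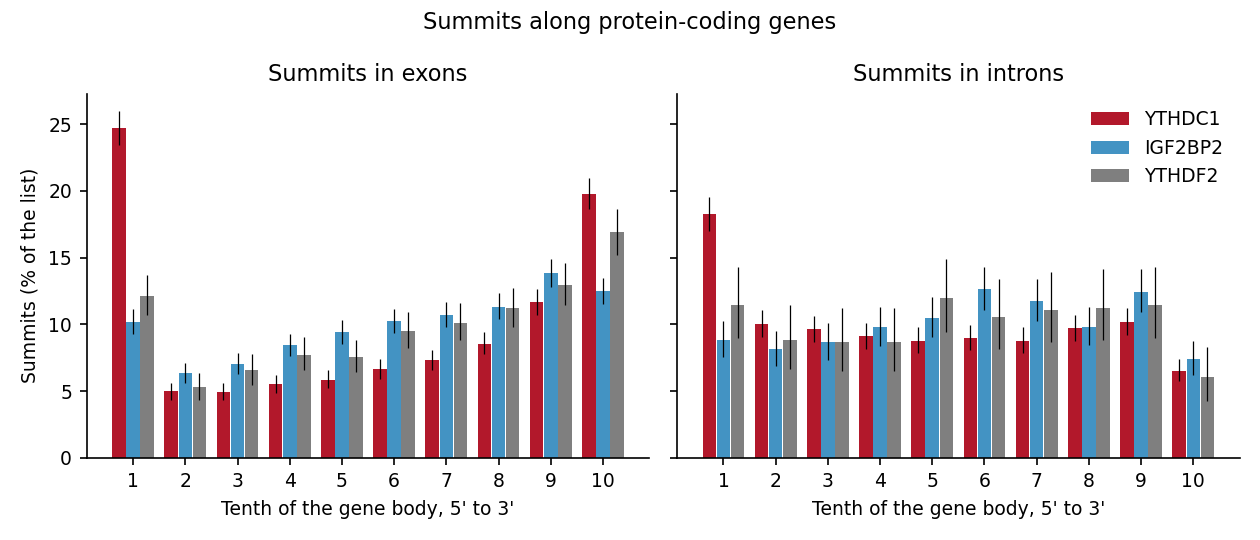
Bars give the percent of each reader's summits in protein-coding genes in 10 equal parts of the gene body, from 5' to 3', with exonic summits in the left panel and intronic ones in the right, and with exact binomial 95% intervals of counting error. YTHDC1 stands above the other readers in the first of the 10 parts in both panels, with 24.7% of exonic and 18.3% of intronic summits.

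The 1460 summits near a start lay in 1322 genes, and in 682 of those genes they were the gene's only summits. Their median pileup was 9 reads, against 6 at the 6643 summits further inside. The genes with the deepest start summits, named after their values were seen, were led in exons by Gm10800 (153 reads). The fold at Gm10800 was only 4.63, peaks of both other readers overlapped it, and repeats there were not checked. Hnrnpu (150 reads), its relative Hnrnpul2 (146), the initiation factor gene Eif3b (123) and Fbrs (113) came next. In 5' UTRs, Gria3, a glutamate receptor gene, had 103 reads and Syncrip, an RNA-binding protein gene, had 96. Tsc22d2 followed with 94. No peak of another reader overlapped the Gria3 and Syncrip sites, while the Tsc22d2 site and the CDS sites of Hnrnpu, Hnrnpul2, Eif3b and Fbrs overlapped peaks of both. In introns, Ddx6, an RNA helicase gene of P-bodies, had 80 reads at 244 bp from its start. Creb1, a cAMP-responsive transcription factor gene, had 60 reads at 845 bp.

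First introns were the intronic counterpart of this 5' end. Of 3282 intronic summits that fell in an intron of the main transcript, 1112 lay in the first (33.9%, interval 32.3 to 35.5), and even placement over each gene's introns would give 27.7%. IGF2BP2 had 16.5% in first introns (even placement 23.6%) and YTHDF2 19.7% (24.8%), so YTHDC1 lay above its even placement and the other readers below theirs. Inside first introns, 33.5% of YTHDC1 summits were within 1 kb of the 5' splice site (even placement 14.6%), against 13.8% for IGF2BP2 (15.2%) and 16.8% for YTHDF2 (14.7%). In later introns the YTHDC1 share within 1 kb was 31.6%, beside 31.7% for even placement. The excess near the 5' splice site was thus in first introns.

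Intronic YTHDC1 peaks mostly stayed inside the intron. The peak also touched an exon in 630 of 3537 cases (17.8%), against 53.7% for IGF2BP2 and 49.9% for YTHDF2. Within 100 bp of an exon lay 18.6% of YTHDC1 intronic summits (even placement 10.2%), 55.4% for IGF2BP2 (20.2%) and 52.6% for YTHDF2 (22.7%). The lists give no strand, so RNA from the opposite strand cannot be told apart at these sites, and repeats in introns were not checked.

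**Figure D3:**
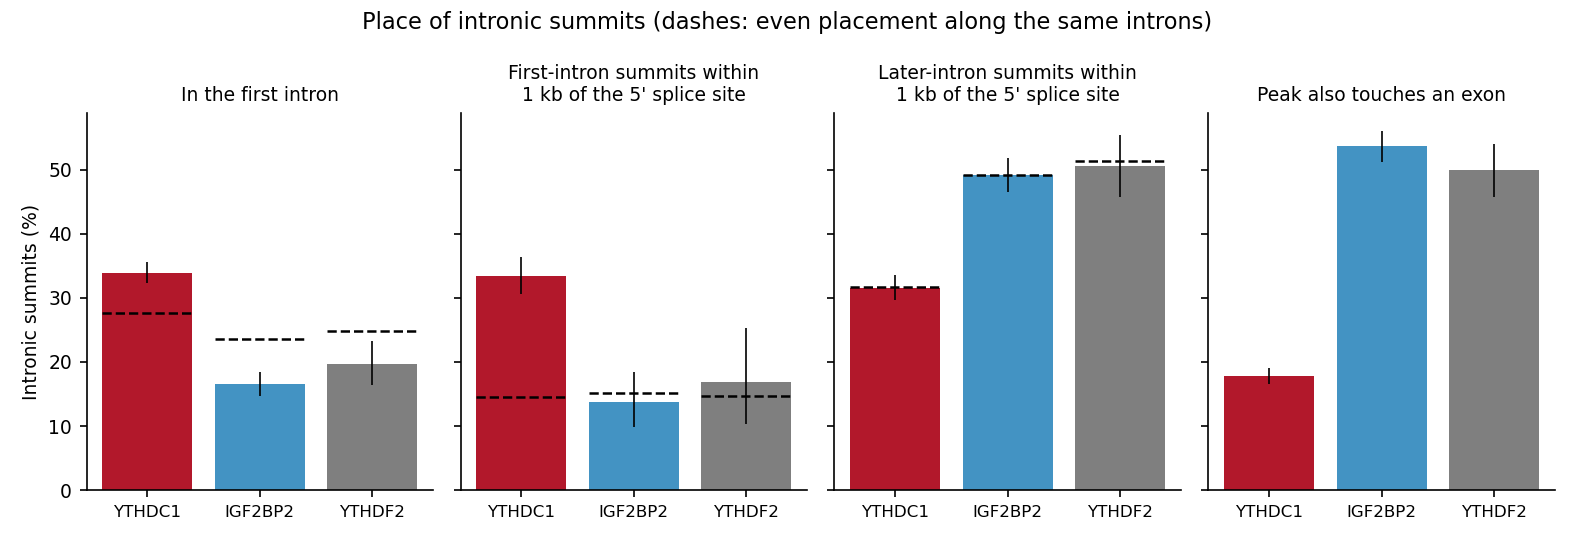
Bars give, for each reader, the percent of intronic summits in the first intron, the percent of first-intron and of later-intron summits within 1 kb of the 5' splice site, and the percent whose peak also touches an exon, with exact binomial 95% intervals. Dashes mark even placement along the same introns. YTHDC1 exceeds its dash in the first 2 panels (33.9% and 33.5%), meets it in the third, and is lowest in the fourth (17.8%).

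Where YTHDC1 summits were in CDS, the exon was longer than for the other readers. The median coding exon at a summit was 231 bp (interval 222 to 244) for YTHDC1, and 193 bp over all CDS bases of the same genes. It was 167 bp for IGF2BP2 (175 bp over the CDS bases of its genes) and 188 bp for YTHDF2 (181 bp). In exons of 400 bp or more lay 35.1% of YTHDC1 CDS summits (31.7% of the CDS bases), 17.6% for IGF2BP2 (24.6%) and 23.0% for YTHDF2 (25.8%).

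CDS windows at YTHDC1 summits were rich in G, in CpG (a C followed by a G) and in purine runs, the last as in most of the printed sequences. Over 2859 windows reaching 50 bases to each side of a summit, G made up 36.5% of bases, against 27.7% in 47284 tiles laid end to end over the CDS of the same transcripts. Purines made up 61.2%, against 53.6% in tiles. The purine share was much the same for IGF2BP2 (61.9%, tiles 54.3%) and YTHDF2 (61.2%, tiles 54.4%). G was above tiles in those lists too, with 32.6% for IGF2BP2 (tiles 27.0%) and 33.5% for YTHDF2 (tiles 27.4%). The 5-mer GGAGG was in 49.9% of windows and 23.2% of tiles. The highest ratios of windows to tiles were at 5-mers with CpG, led by GCGCG (7.63% and 3.12%). CpG occurred 4.78 times per window and 3.28 times per tile. For IGF2BP2 these values were 3.72 and 2.99, and for YTHDF2 3.99 and 3.07. The m6A core GGAC was found in 42.9% of windows (interval 41.1 to 44.7), against 39.5% of tiles and 42.6% of tiles weighted to the same GC content, so the difference from tiles of equal GC was within counting error. In 3' UTR windows GGAC was in 36.9% (33.3 to 40.7), against 35.0% of tiles of the same GC content, and in 5' UTR windows in 45.5% (41.2 to 49.7), against 41.5%. Motifs were searched on the transcript strand only.

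Acidic codons made up 22.3% of the codons in YTHDC1 CDS windows on average and 13.5% in tiles. At least 11 of the 33 codons were acidic in 568 of 2859 YTHDC1 windows (19.9%, interval 18.4 to 21.4), against 2.95% of tiles. This share was 9.93% at pileups of 2 to 3, 15.7% at 4 to 6, 17.5% at 7 to 12, 25.3% at 13 to 24, 42.3% at 25 to 49 and 57.3% at 50 or more. The other lists showed it too. The overall share was 19.9% for YTHDC1, 16.3% for IGF2BP2 and 18.6% for YTHDF2, and at 50 reads or more it was 57.3% for YTHDC1, 55.4% for IGF2BP2 and 60.9% for YTHDF2.

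**Figure D4:**
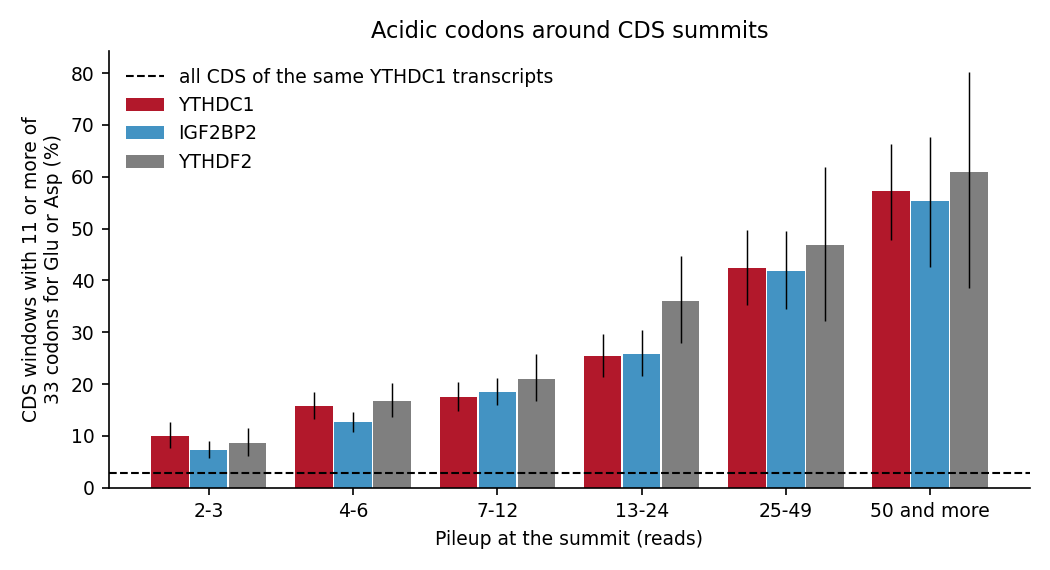
Bars give the percent of CDS windows around summits with at least 11 of 33 codons for glutamate or aspartate, by pileup at the summit in reads and by reader, with exact binomial 95% intervals. The dashed line marks 2.95%, the share of tiles over the CDS of the YTHDC1 transcripts. In all 3 readers the share is above the line in every class and highest at 50 reads or more.

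Peaks of the other readers lay on the same site for a minority of YTHDC1 peaks. An overlap of at least 1 bp with either list was found for 31.1% of them (interval 30.2 to 32.0), for 50.8% in CDS, 31.2% in 3' UTRs, 21.3% in introns and 19.1% in 5' UTRs. It was 18.5% within 1 kb of a gene start and 13.6% in first introns, against 25.5% in other introns. Overlap moved with pileup. In CDS it was 37.6% at 2 to 3 reads and 88.0% at 50 or more, in introns 11.8% and 71.8%, and in 5' UTRs 11.5% at 2 to 3 reads and 15 of 25 peaks at 50 or more. An overlap also needs a peak in the other list, and in 5' UTRs IGF2BP2 had 211 peaks and YTHDF2 123, against 3222 and 1331 in CDS. The regional overlaps are therefore no result apart from the region shares.

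Genes were also read by function, with lists chosen from textbook roles and with earlier results of these data known. The share of a list with a summit is to be read beside the 18.8% of all protein-coding genes, and no list was tested. Splicing and speckle genes carried mainly exonic summits. Over all protein-coding genes, 3537 of 8103 summits were intronic. Of 37 genes of SR proteins and nuclear speckles, 30 had a summit and 29 an exonic one, and 20 of their 90 summits were intronic. Acin1, a splicing-associated gene, had 9 summits with a deepest of 81 reads, and Srrm2 and Son, which encode the large scaffold proteins of speckles, had 8 and 7. Ewsr1, an RNA-binding protein gene, had 5 with pileups of 15, 12, 5, 8 and 98. Sfpq and Nono, which encode paraspeckle proteins, had 5 and 3. Among 48 core spliceosome genes 26 had a summit, led by Sf3b2 with 6, and 15 of their 66 summits were intronic. Among 20 cleavage and polyadenylation genes 15 had one, led by Pcf11 and Wdr33 with 4 each, and 7 of their 21 were intronic.

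Genes of the m6A pathway were represented unevenly. Of 14 writers and erasers 8 had a summit. Fto, an m6A demethylase gene, had 5, with 4 in introns, and Zc3h13, a writer complex gene, had 3 with a deepest of 86 reads. The catalytic writer genes Mettl3 and Mettl14 had none. Of 14 reader genes 6 had a summit, led by Hnrnpa2b1 with 9 (25, 8, 8, 14, 35, 45, 15, 17 and 5 reads from the 5' end). Ythdc1 had 2, the printed one of 154 reads and one of 4 reads in its 3' UTR, and Igf2bp2 and Ythdf2 had none in the YTHDC1 list. Heterochromatin and retroelement silencing genes had a summit in 12 of 22, with 6 each in Atf7ip and Dnmt1. RNA export genes had one in 9 of 23, nuclear pore genes in 10 of 27, nuclear exosome genes in 5 of 16 and replication origin genes in 7 of 20.

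Phosphoinositide and PKC signalling genes carried mainly intronic summits, counted by summit and by gene. Of 37 such genes 29 had a summit, 25 an intronic one and 13 an exonic one, and 55 of their 81 summits were intronic. Prkcb, a protein kinase C gene, had 16, 50, 44 and 22 reads at 4 summits in intron 2 and 3 reads in its 5' UTR, and no peak of another reader was in that gene. Of 48 stem and leukaemia transcription factor genes, 36 had a summit, 23 an intronic one and 24 an exonic one. Introns held 92 of their 137 summits, and Etv6 and Foxp1 alone held 17 and 16 of those. Runx1, a master factor gene of blood stem cells, had 10. Their pileups were 5, 3, 3, 20, 2, 12, 3, 5, 3 and 5 from the 5' end, and all but the one of 12 reads, in a 5' UTR, were intronic. Mecom, another stem cell factor gene and named outside the rule for list genes, had 5 intronic summits with pileups of 6, 3, 4, 7 and 19. Of 40 E3 ubiquitin ligase genes 30 had a summit, 20 an intronic one and 24 an exonic one. Introns held 59 of their 108 summits, and Rnf220 alone held 30 of those. The phosphoinositide and PKC signalling list also has the longer genes, with a median length of 104 kb, against 26.2 kb for SR and speckle genes.

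**Figure D5:**
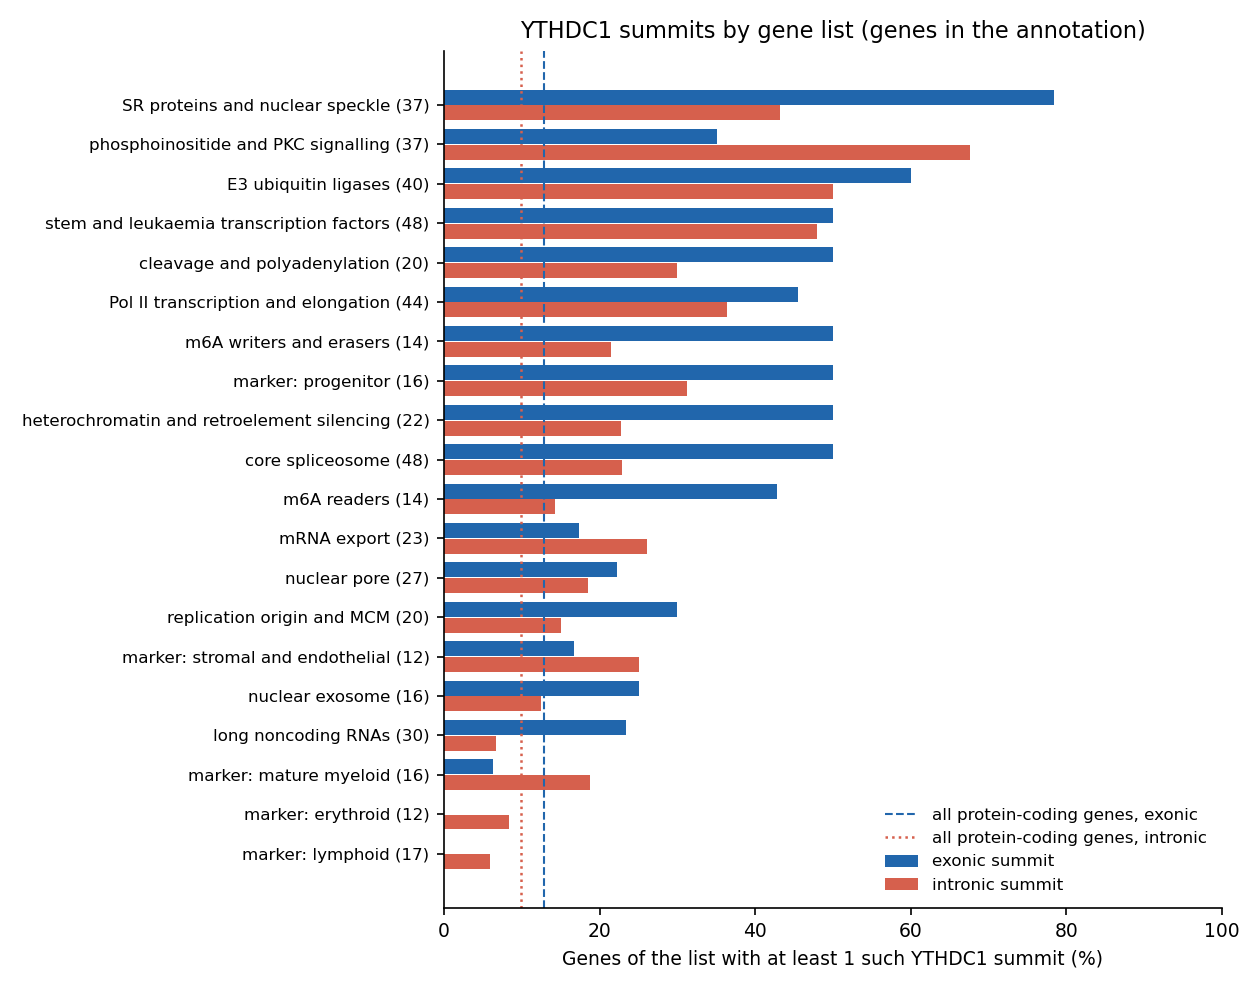
Bars give the percent of genes of each list with at least 1 exonic (blue) or intronic (red) YTHDC1 summit, with the number of annotated genes of the list in brackets, and the lines give the same for all protein-coding genes (12.8% exonic, 9.85% intronic). SR and speckle genes had 78.4% exonic and 43.2% intronic, and phosphoinositide and PKC genes 35.1% exonic and 67.6% intronic.

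Of 44 Pol II transcription and elongation genes 26 had a summit, and 27 of their 69 summits were intronic. Supt16, a histone chaperone gene, and Med13l, a Mediator gene, had 7 each.

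Lymphoid and erythroid markers had few summits, and progenitor markers had the highest share of these lists. Of 16 progenitor markers 9 had one, led by Spn with 5 and Myb, Csf2ra and Sox4 with 4 each. Of 17 lymphoid markers 1 had a summit (Klrb1c, 16 reads), of 12 erythroid markers 1 (Tfrc, 6 reads) and of 16 mature myeloid markers 3 (Itgam, Adgre1 and S100a9), a share close to the 18.8% of all protein-coding genes. Of 12 stromal and endothelial markers 4 had a summit (33.3%), above that share. Pecam1, an adhesion gene also expressed by blood cells, had 6, all intronic, with pileups of 8, 23, 10, 9, 7 and 38, and Pdgfrb had 75 reads at 1 intronic summit. The marker lists were longer than first planned, and Spn, Csf2ra, Klrb1c, Tfrc, Adgre1 and Pdgfrb were among the additions. Whether other cells were in the sample was not tested.

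Among other noncoding genes, Lncppara had 7 intronic summits with a deepest of 38 reads. The chromosome 17 transcript AC164314.1 had 4 with a deepest of 125. Small nuclear and cytoplasmic RNAs gave some of the deepest peaks at low folds. The signal recognition particle RNA genes Rn7s1 and Rn7s2 had 189 and 193 reads with folds of 5.61 and 5.72, and Rn7sk, the 7SK RNA that holds the elongation factor P-TEFb, had 147 with a fold of 7.19. Summits lay in 20 snoRNA and 5 scaRNA annotations. A further 171 summits lay in processed pseudogenes. Reads of these RNAs and their near-identical copies cannot be told apart, so the gene given is uncertain. Xist, with which YTHDC1 is known to act, had no summit, and Tsix, its antisense gene, had 1 with 8 reads. Transcript level was not measured, so the missing Xist summit cannot tell whether YTHDC1 was on that RNA. Between genes, the deepest peak, at 5860347 to 5860828 on chromosome 3, had 163 reads and a fold of 6.56, and the 8 deepest intergenic peaks had 125 to 163 reads. Chromosome Y had 78 peaks, 69 of them between genes, against 116 peaks for IGF2BP2 and 49 for YTHDF2 there.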

How the data were processed

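Peak lists of the YTHDC1, IGF2BP2 and YTHDF2 immunoprecipitates were used, with 1 library each. Reads were handled with bcl2fastq 2.17, Trim Galore and HISAT2 on GRCm38, per the submitters' processing notes, and the peak caller is not given in the sources used here. The deposited values of each peak are a fold (ratio) over background, the −log10 of a p-value and of a q-value, a score, and, per the file headers, a pileup signal and a length. All are the authors' own and were used to rank and describe the peaks of each list. No library totals were used, so depth is unknown.

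Summits were assigned with GENCODE M21, over all transcripts, with UTRs before CDS, then other exons, then introns. Several equally ranked genes lay under 2.64% of YTHDC1 summits. Introns, exon lengths and sequence windows came from the longest complete coding transcript, and 255 intronic YTHDC1 summits outside its introns were left out of intron ranks. Even placement is the mean, over summits, of the share of the gene's own exons or introns that meets the condition. Windows reaching 50 bases to each side of the summit were compared with tiles of the same transcripts, and their GC match used 6 classes. Python 3.11.15, numpy 2.4.6, pandas 2.3.3, scipy 1.17.1 and matplotlib 3.10.9 were used. Regions and distances on a single transcript were checked on simulated summits placed at known spots. The step that chooses the gene and region over all transcripts was not part of that check. Coordinates are 1-based.

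With 1 library per reader no test between lists was made. Named genes were the 15 protein-coding genes with the most summits, the 12 with the highest pileup, the 8 other genes with the most summits, the 6 widest and 6 narrowest spreads among genes with at least 5, the 8 deepest intergenic summits, up to 4 genes per list, and the 4 genes with the most summits per region, of which some are given in counts and a few, with 2 gene lists and 1 sequence, are not reported here. Genes named outside this rule are said to be so or complete a list. The members, gene lists and named genes were chosen with earlier results of these data known, and the acidic codon count was added after the sequences were seen. A planned count of repeat bases at summits was not run, since no genome sequence was used here.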

Additional observations from a re-analysis of the deposited data

How the results depend on the processing

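Alternatives were run for 18 shares, counts and medians of YTHDC1, and cutting weak peaks moved most of these. Exon lengths, splice site distances, pileup classes and single gene lists were not recomputed. Even placements were computed again only for other distances from the start, and tiles only for 51 bp windows. The other readers' values were computed again only there. With a −log10 q of at least 5, introns held 36.3%, CDS 27.0%, 5' UTRs 8.62% and intergenic sites 12.1% of summits, 158 genes had at least 5, the median pileup was 8 in introns, 9 in CDS and 11.5 in 5' UTRs, 19.6% lay within 1 kb of a start, 25.8% of intronic and 55.9% of CDS peaks overlapped another list, and 23.2% of CDS windows had 11 acidic codons. With a fold of at least 5 the values were 36.2%, 27.2%, 9.39% and 11.6%, with 9.53% in 3' UTRs, 142 genes, medians of 9, 10 and 11, 36.3% in first introns, 21.3% near a start, overlaps of 26.2% and 56.0%, and 24.6% of windows. Genes with at least 1 summit fell from 4136 to 3179 with the q cut and to 2990 with the fold cut. Members of the gene lists, markers left out, with a summit fell from 300 to 249 and 246. These counts have no counting interval. The middle of the peak in place of the summit gave 38.8% in introns and 24.8% in CDS. Taking CDS before UTR gave 29.4% in CDS and 6.89% in 3' UTRs. An overlap of at least 50% of the peak gave 18.7% in introns and 45.6% in CDS, the transcript with most exons 31.1% in first introns, a limit of 2 kb 22.0% near a start, and 51 bp windows GGAC in 25.3%. Settings chosen after seeing the data left out the 10 genes with most summits, or all but the autosomes and X, with no value outside its counting interval, or peaks of 50 reads or more, which gave overlaps of 19.6% in introns and acidic windows of 18.3%. No paired analysis was possible because each reader had 1 library and no test was made.

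Limits: 1 library per reader, unknown depth, no strand in the lists, no genome sequence for introns or repeats, and no measure of transcript level. How far depth sets the differences between lists was not tested. Peaks of 2 or 3 reads make up 23.4% of the YTHDC1 list.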
